A study of Mus musculus with 4 samples.

Results

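Collagen-rich spots were followed in 2 liver sections of DEN+CCl4 mice, a liver cancer model that joins the carcinogen diethylnitrosamine (DEN), which damages DNA, to carbon tetrachloride (CCl4), a toxin that scars the liver. The sections were labelled DEN22w and DEN30w, read here as 22 and 30 weeks. The same spots in 2 sections of the STAM model, a metabolic model with fatty, inflamed liver and diabetes, labelled STAM16w and STAM20w for 16 and 20 weeks, served for one comparison at the end. The labels give no strain, sex or age, do not say from when the weeks were counted, and hold no untreated liver, so both classes of spots compared in a DEN+CCl4 section carry the same treatment. There was 1 section at each time, and whether those of a model are from different animals is not stated, so p-values measure only the spread between these sections, which may be technical.

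The assay was Visium, in which the messenger RNA over each barcoded spot of an array is captured and counted as unique molecular identifiers (UMIs). A spot usually covers more than 1 cell and mixes cell types, so a gene can differ between spots through the mix of cells or through the RNA per cell, and these cannot be told apart. Spots with at least 500 UMIs and 250 genes were kept. The score of a spot was the UMIs of Col1a1, Col1a2, Col3a1 and Lum per 10000 UMIs, and the collagen-rich spots were the top 10% of each section: 275 of 2746 in DEN22w and 297 of 2968 in DEN30w, 572 of the 10627 kept spots of the whole series. Kept spots held 22471682 UMIs in DEN22w and 34880049 in DEN30w.

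Scar tissue in the liver is laid down mainly by hepatic stellate cells, which store vitamin A at rest and turn into contractile, collagen-making myofibroblasts after injury, and by fibroblasts of the portal tracts. Collagens I and III, whose chains Col1a1, Col1a2 and Col3a1 encode, form its fibres, and lumican (Lum) is a proteoglycan that spaces them. Hepatocytes differ along the blood flow: those at the portal inlet make urea and glucose, and those around the central vein make glutamine and carry Cyp2e1, the cytochrome that activates CCl4.

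The scoring genes chose the spots and are given as a description only. In the collagen-rich spots, Col1a1 was at 178 CPM (UMIs per 1000000) in DEN22w and 331 CPM in DEN30w, against 29.6 and 65.1 CPM over the whole sections. Col3a1 was at 235 and 432 CPM, against 61.3 and 110 CPM. The spots were defined by few molecules. The median was 3 scoring UMIs in DEN22w and 6 in DEN30w, and 50 and 35 of the spots had only 1. The lowest score inside the class was 4.91 in DEN22w and 7.93 in DEN30w, and the highest outside was 4.89 and 7.93, so the limit cuts a continuous range. The same rank also meant a higher collagen level in DEN30w, where only 17.9% of all kept spots had no scoring UMI, against 34.9% in DEN22w.

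On the array the collagen-rich spots were scattered and in short strings. Of their contacts with other kept spots, 18.6% in DEN22w and 27.5% in DEN30w were with another collagen-rich spot. They fell into 166 and 133 groups of touching spots, the largest of 21 and 16 spots, and 115 and 79 of them touched no other. They were shallow: their median was 3941 UMIs in DEN22w and 4593 in DEN30w, against 7302.5 and 9423 over all kept spots. For this reason each was compared with a spot of the same section that had 0 scoring UMIs and the nearest UMI total, which gave 275 pairs in DEN22w and 292 in DEN30w with medians of 3941 against 3959 UMIs and 4556 against 4528.5 UMIs.

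**Figure D1:**
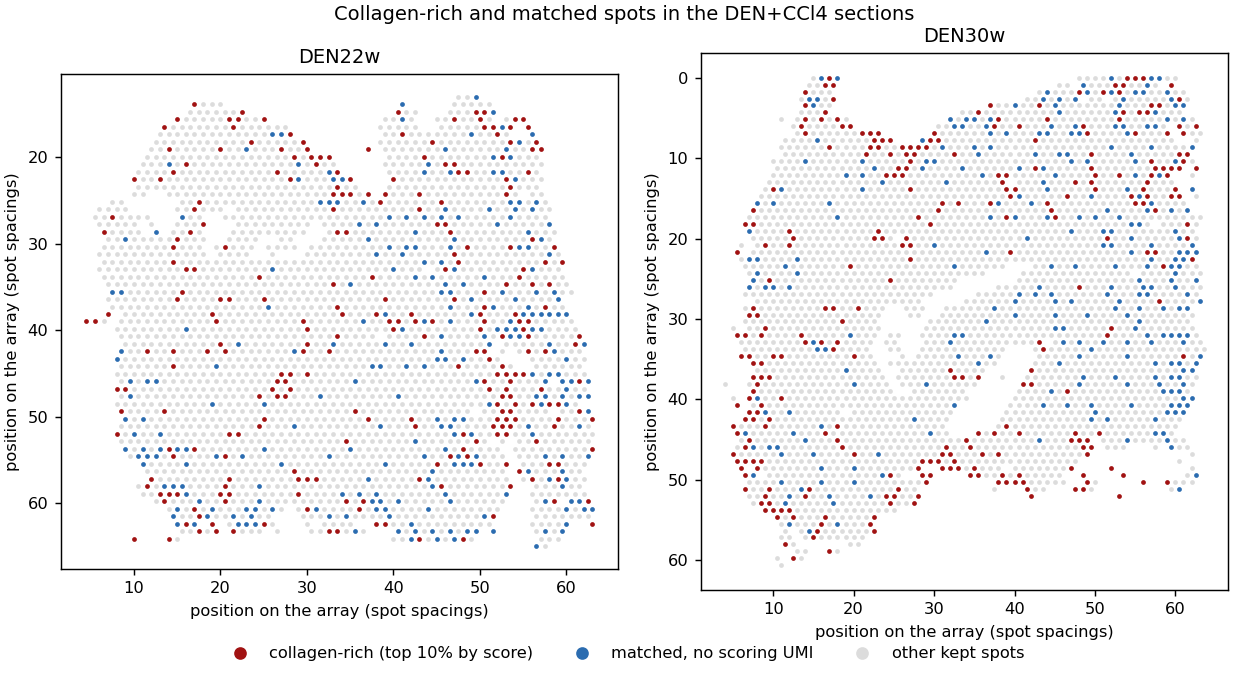
Position of collagen-rich spots (red), matched spots with no scoring UMI (blue) and other kept spots (grey) on the array, in units of the distance between neighbouring spots, in DEN22w (left) and DEN30w (right). The collagen-rich spots form scattered points and short strings, and many in DEN30w lie along the outline of the tissue.

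Matching on UMI totals left other differences between the classes. In DEN22w, 23.3% of the collagen-rich spots lay at the tissue edge, with fewer than 6 neighbours over tissue, against 12% of the matched spots. In DEN30w the shares were 33.9% and 7.88%. A UMI of a bile duct marker (Krt19, Krt7 or Epcam) was found in 4.0% of collagen-rich and 1.09% of matched spots in DEN22w, and in 23.3% and 4.11% in DEN30w. Mitochondrially encoded genes took 1.62% of UMIs in collagen-rich and 1.25% in matched spots of DEN22w, and 1.74% and 1.18% in DEN30w. Markers of mesothelium, the cell sheet that covers the liver, summed to 9.63 and 14.6 CPM in collagen-rich spots and 1.48 and 2.52 CPM in matched spots, and no member passed the filter on low counts. Haemoglobin RNA, a mark of red blood cells, moved with the class as well: of 5 tested erythroid genes, Hba-a1, Hba-a2, Hbb-bs and Hbb-bt were higher and Alas2 lower by the test described next. Hba-a2 had 59 UMIs in collagen-rich and 15 in matched spots of DEN22w, and 76 and 50 in DEN30w. The summed list was at 205 and 219 CPM in collagen-rich spots and 183 and 217 CPM in matched spots, and its part in the other results was not tested. Each count of genes that follows was repeated without edge spots and without spots with a duct marker UMI. In these repeats the collagen-rich class was drawn anew as the top 10% of the remaining spots, which also lets in spots with lower scores.

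Apart from the scoring genes, collagen-rich spots had more RNA of matrix, macrophage, antigen-presentation and cytoskeleton genes and less RNA of periportal hepatocyte genes. Of 9836 genes tested, 424 were higher and 314 lower in collagen-rich spots (edgeR's quasi-likelihood test on sums per section and class, Benjamini-Hochberg adjusted p under 0.05), or 7.5% of the genes in either direction, 4.31% higher and 3.19% lower. Of these 738 genes, 715 had the same direction in both sections, against 61.6% of all tested genes. The call pools the same sections, so such agreement is in part built into it. Among those 715 genes, 560 differed more in DEN30w, a share that was not worked out over all tested genes. In 408 of the 738 both sections' own counting intervals lay off 0. The test rested on 4 sums with 1 residual degree of freedom and on a spread shared by all genes, so disagreement between the sections in a single gene hardly enters its p. The filter on low counts asked for enough UMIs in as many sums as 1 class holds. A gene with few UMIs could thus be tested through the class where it was higher. No gene passed without DEN30w or without the section as a block, and 263 passed without DEN22w. DESeq2 called 10 genes higher and 66 lower among 874 genes. Its filter on mean counts left 8962 of the 9836 without an adjusted p, among them all tested members of the stellate and portal fibroblast lists. Before any such filter, 411 of the 9836 genes had an unadjusted p under 0.05 by DESeq2, against 1781 by edgeR. Scaling to hepatocyte genes gave 446 higher and 82 lower.

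The 12 named genes that rose most were chosen among called genes that were higher in both sections, with at least 50 CPM in the higher class of both. Mmp2, a gelatin-cutting matrix metalloprotease, led them, with 54.1 and 78.8 CPM in collagen-rich spots of DEN22w and DEN30w and 15.6 and 15.1 CPM in matched spots. Its log2 fold change was 2.04 ± 0.21 (SE of the fit over 2 sections, edgeR adjusted p = 1.4e-18), and at least 1 UMI was found in 21.1% and 30.1% of collagen-rich against 6.9% and 8.9% of matched spots. Gsn, the actin-severing gelsolin that fibroblasts express, had 58.5 and 99.7 CPM against 18.5 and 25.2 CPM. Ccdc80, a secreted matrix protein, had 54.8 and 105 CPM against 19.3 and 26.3 CPM. In each of these 3 genes the intervals of the 2 sections overlapped. Bgn, the proteoglycan biglycan, had 187 and 372 CPM against 107 and 91.9 CPM, and Sparc, a collagen-binding glycoprotein, had 152 and 328 CPM against 95.6 and 99.4 CPM. For both, the matched spots of the sections were alike and the collagen-rich spots of DEN30w were well above those of DEN22w, and the counting intervals of the sections' ratios did not overlap. The remaining rises were Tmsb10 (log2 fold change 1.52), H2-Ab1 (1.35), Flna (1.22), Ltbp4 (1.20), Cd74 (1.19), H2-Aa (1.18) and Laptm5 (1.18), genes of actin binding, antigen presentation, transforming growth factor beta storage and leukocyte lysosomes. Log2 fold changes from the fit are on a scale with normalization factors of 0.951 to 1.08 and lie about 0.1 below the ratios of CPM.

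**Figure D2:**
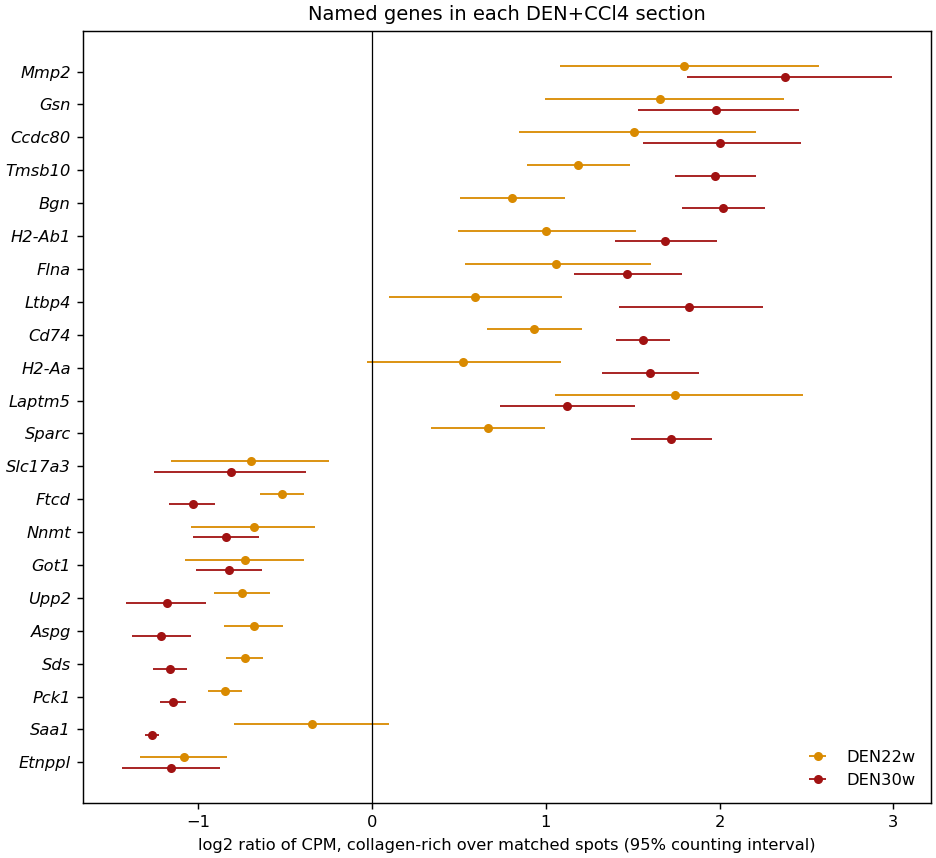
Log2 ratio of CPM, collagen-rich over matched spots, for the 12 genes with the largest rise and the 10 with the largest fall, in DEN22w (orange) and DEN30w (red). Points are the ratios and bars their 95% exact binomial intervals, which cover counting error only. The rule took only called genes with the same direction in both sections, so that agreement is not a result. The intervals of H2-Aa and Saa1 in DEN22w reach 0.

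Genes of the cells that make scar were followed by lists. In these and the later lists, members with few UMIs could pass the filter through the collagen-rich sums alone. Counts of members that rose can lean upward for that reason, and this was not corrected. Of 16 tested members of the stellate cell and myofibroblast list, 11 rose and none fell, all 16 were above 0, and the median log2 fold change was 1.22, against 0.00 over all genes tested. Vim, the intermediate filament of mesenchymal cells, had 43.7 and 82.7 CPM against 14.1 and 26.3 CPM. Pdgfrb, the receptor that platelet-derived growth factor uses on stellate cells, had 37.0 and 47.2 CPM against 11.1 and 16.2 CPM. Cygb, cytoglobin of stellate cells, had 35.5 and 60.8 CPM against 13.3 and 22.7 CPM. These 3 genes had similar ratios in the sections, with log2 values between 1.41 and 1.74. Contractile genes had larger ratios in DEN30w, but their ratios in DEN22w rested on few UMIs. Counting error is wide at such counts, so a difference between the sections cannot be read from them. Acta2, smooth muscle actin and the standard mark of myofibroblasts, had 7 UMIs in collagen-rich and 6 in matched spots of DEN22w, but 98 and 21 UMIs in DEN30w. Myl9, a myosin light chain, had 14 and 8 UMIs in DEN22w and 100 and 12 in DEN30w, and its fitted log2 fold change was 2.27 ± 0.34 (edgeR adjusted p = 2.9e-09). Tagln had 4 and 3 UMIs in DEN22w and 64 and 19 in DEN30w. The difference between the times was not tested, with 1 section at each. In DEN30w 52 of the 292 paired collagen-rich spots had an Acta2 UMI, and the spot with the most held 9.18% of the 98 UMIs. Without edge spots, 5 of the 16 members passed.

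The bases before the Myl9 gene, at chr2:156775264-156775407 on the plus strand of GRCm38.p6, are shown because they hold a CArG box. It is the site bound by serum response factor in many contractile genes. The bases shown lie 200 to 57 before the start used in the promoter search. That start is inside the gene as given by RefSeq, and the bases shown end where the gene begins. The box is in capitals.
Myl9: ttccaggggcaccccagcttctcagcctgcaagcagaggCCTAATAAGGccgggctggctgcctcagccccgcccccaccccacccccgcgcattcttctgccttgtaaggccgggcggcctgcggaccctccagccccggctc
The match lies 161 to 152 bases before the start used in the promoter search, and so closer to the RefSeq start of the gene. Searched on both strands of the 250 bases before the start, such a box was present in 1.47% of 32851 promoters. It is a match of letters and does not show binding.

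Fibroblast markers of the portal tract moved with the score as well. Of 7 tested members of the portal fibroblast list, 6 rose. Eln, elastin, had 11.8 and 75.4 CPM against 3.70 and 9.59 CPM, and Mfap4, a microfibril glycoprotein, had 12.6 and 44.3 CPM against 5.19 and 1.51 CPM. Mfap4 rested on 17 against 7 UMIs in DEN22w and 91 against 3 in DEN30w. Dpt, dermatopontin, had 26 against 15 UMIs and 166 against 31. The summed list was at 204 and 601 CPM in collagen-rich spots and 84.5 and 174 CPM in matched spots. Bile duct markers move with these genes: in collagen-rich spots with a duct marker UMI the portal fibroblast list summed to 561 and 773 CPM, and in those without one to 183 and 498 CPM, still above the matched spots. In DEN22w only 11 collagen-rich spots had a duct marker UMI, and they were deeper, with a median of 7350 UMIs against 3913 in the others. Without duct marker spots, 6 of 7 members passed again.

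Matrix genes other than the scoring genes rose broadly. Of 23 tested proteoglycans and glycoproteins of the matrix, 19 rose, with a median log2 fold change of 1.09. They included Dcn (decorin, 1.04), Igfbp7 (1.10), Postn (periostin, 1.56) and Thbs2 (thrombospondin 2, 2.63, from 9 against 1 UMIs in DEN22w and 48 against 7 in DEN30w). Fn1, fibronectin, which hepatocytes also secrete, had 521 and 646 CPM against 544 and 680 CPM (log2 fold change -0.18 ± 0.13, edgeR adjusted p = 0.50). Of 15 other collagen genes, 10 rose, among them all 3 chains of collagen VI: Col6a1 had 42.2 and 55.9 CPM against 7.41 and 14.6 CPM, Col6a2 27.4 and 62.2 CPM against 7.41 and 12.6 CPM, and Col6a3 42.2 and 101 CPM against 18.5 and 20.2 CPM. The basement membrane chains Col4a1 and Col4a2 rose by 0.91 and 0.73 on the log2 scale. Col5a3 fell, with 80.0 and 54.5 CPM against 97.8 and 86.3 CPM. Col18a1 was at 852 and 728 CPM against 928 and 829 CPM and did not pass (log2 fold change -0.27). Without edge spots, 11 of 22 matrix proteins and 8 of 14 collagens passed.

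Enzymes that finish and cut collagen were next. Of 13 tested genes for collagen processing and cross-linking, 6 rose, led by Loxl1, a lysyl oxidase that cross-links elastin and collagen, with 28.9 and 55.4 CPM against 5.93 and 6.06 CPM (log2 fold change 2.74 ± 0.30). The collagen chaperone Serpinh1 had 39.2 and 149 CPM against 17.0 and 41.9 CPM. Of 9 metalloproteases and inhibitors, 4 rose: Mmp2, Timp2, Timp3 and Mmp23. Mmp12, the macrophage elastase, had 47.4 and 24.8 CPM against 40.7 and 9.59 CPM and did not pass (edgeR adjusted p = 0.17). Of 15 transforming growth factor beta and platelet-derived growth factor genes, 5 rose, and 3 of these, Ltbp2, Ltbp3 and Ltbp4, belong to the latent binding proteins of the matrix. Ltbp2 had 27 against 8 UMIs in DEN22w and 214 against 9 in DEN30w, with a log2 fold change of 3.60 ± 0.28. Like Mfap4 and Thbs2 it had few UMIs in matched spots and passed the filter through the collagen-rich sums. The ligand gene Tgfb1 had 19.99 and 29.2 CPM against 17.8 and 12.6 CPM and did not pass (edgeR adjusted p = 0.16).

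Macrophage genes were followed by lists as well. Of 16 tested members of the lipid-associated macrophage and monocyte list, 13 rose. Lyz2, lysozyme of myeloid cells, had 432 and 992 CPM against 221 and 397 CPM, Gpnmb had 209 and 144 CPM against 104 and 52.5 CPM, and Trem2, the receptor for lipids on such macrophages, had 45.2 and 42.3 CPM against 27.4 and 10.1 CPM. Of 11 tested Kupffer cell genes, 4 rose, which were the complement genes C1qa, C1qb and C1qc and Adgre1. None fell, 7 were above 0, and the summed list was at 820 and 1340 CPM against 635 and 919 CPM. The genes that did not pass included markers of resident Kupffer cells. Clec4f had 130 and 85.1 CPM against 115 and 101 CPM, and Cd5l 150 and 203 CPM against 128 and 195 CPM. Timd4 had 2 against 10 UMIs in DEN22w and 20 against 25 in DEN30w. Whether the lists differ from each other was not tested. Neutrophil genes summed to 35.5 and 991 CPM against 23.0 and 1002 CPM, and none of the 3 tested passed.

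Antigen-presentation genes rose in both sections. Of 7 tested genes of MHC class II and dendritic cells, 5 rose: H2-Eb1, Cd74, H2-Ab1, H2-Aa and H2-DMa. Cd74, the invariant chain that guides class II molecules, had 244 and 679 CPM against 127 and 231 CPM, and 58.2% and 75.7% of collagen-rich spots had a UMI of it, against 38.5% and 61.0% of matched spots. H2-Aa, a class II alpha chain, had 51.1 and 216 CPM against 35.6 and 71.2 CPM, and its interval in DEN22w reached from -0.03 to 1.09 (log2). The 200 bases before its start are shown as an example of this group, at chr17:34287824-34288023 on the minus strand of GRCm38.p6 (RefSeq), with the letters TGACGTCA in capitals, which resemble the X2 element of class II promoters.
H2-Aa: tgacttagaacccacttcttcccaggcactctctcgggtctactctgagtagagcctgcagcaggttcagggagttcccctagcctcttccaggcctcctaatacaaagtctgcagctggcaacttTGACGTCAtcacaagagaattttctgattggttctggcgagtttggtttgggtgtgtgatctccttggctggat
The match lies 74 to 67 bases before the start, and 1.55% of the 32851 promoters hold these letters on either strand.

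Plasma cell genes separated the sections. Igkc, the kappa light chain constant gene, had 25 UMIs in collagen-rich and 11 in matched spots of DEN22w, and 4337 and 441 in DEN30w. Ighg2b, an immunoglobulin G heavy chain, had 1 and 1 UMI in DEN22w and 1832 and 182 in DEN30w. Its adjusted p (edgeR, 1.5e-58) therefore rests on DEN30w, and the counts of single immunoglobulin genes are uncertain because such genes are much alike. Of 6 tested B and plasma cell genes, 5 rose. The RNA was concentrated: in DEN30w the 10 highest of the 292 paired collagen-rich spots held 60.04% of their Igkc UMIs, and the 10 highest for Ighg2b held 61.1%. Edge spots move with it, at 2851 CPM of Igkc in collagen-rich spots at the edge and 1399 CPM in those inside, against 223 CPM in matched spots. Without edge spots 4 of 6 members passed.

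Endothelial and duct genes were followed as markers of other cells. Of 11 sinusoidal endothelial genes 2 rose (Stab1 and Fcgr2b), and of 10 vascular and lymphatic genes 2 rose, Eng and the lymphatic chemokine Ccl21a, which had 7 against 1 UMIs in DEN22w and 90 against 12 in DEN30w. Of 7 tested bile duct genes 2 rose, Epcam and Anxa3. Epcam had 9 against 3 UMIs in DEN22w and 58 against 3 in DEN30w. Krt19 and Krt7 did not reach the filter: Krt19 had 2 against 0 and 23 against 6 UMIs, and Krt7 had 0 in both classes of DEN22w and 21 against 3 in DEN30w. Cytoskeleton genes, which many cell types express, rose in 11 of 14 members, with Tmsb4x at 500 and 922 CPM against 276 and 392 CPM and Actb at 1245 and 1786 CPM against 1001 and 1102 CPM.

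Hepatocyte genes of the periportal zone were lower. All 16 tested periportal genes were lower in collagen-rich spots and 14 fell, with a median log2 fold change of -0.71. Under DESeq2, which gave 13 of the 16 an adjusted p, 12 fell, and without edge spots 14 fell. Pck1, the enzyme that commits carbon to glucose production, had 954 and 1103 CPM against 1713 and 2437 CPM, a log2 fold change of -1.11 ± 0.14 (edgeR adjusted p = 1.1e-13). Sds, which breaks down serine, had 855 and 612 CPM against 1420 and 1369 CPM. Hal, the first enzyme of histidine breakdown, had 261 and 187 CPM against 377 and 342 CPM, and Cyp2f2, the cytochrome used to mark periportal cells, had 962 and 486 CPM against 1332 and 870 CPM. Urea cycle genes fell less: Ass1 by 0.61, Arg1 by 0.68 and Cps1 by 0.44 on the log2 scale. Other large falls lay outside the list. Etnppl, which breaks down phosphoethanolamine, had 144 and 75.4 CPM against 304 and 168 CPM, Aspg, an asparaginase, 342 and 202 CPM against 548 and 468 CPM, and Upp2, a uridine phosphorylase, 370 and 111 CPM against 619 and 252 CPM. Got1, Nnmt, Ftcd and Slc17a3 fell by 0.86 to 0.90. Pck1 was also lower in collagen-rich spots of both STAM sections, and Sds in those of STAM20w, with the values given below. The small gap of Sds in STAM16w lay within counting error.

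The 200 bases before the Pck1 start, at chr2:173152873-173153072 on the plus strand of GRCm38.p6 (RefSeq), are shown because they hold in capitals TTACGTCA, the cyclic AMP response element known from the rat gene.
Pck1: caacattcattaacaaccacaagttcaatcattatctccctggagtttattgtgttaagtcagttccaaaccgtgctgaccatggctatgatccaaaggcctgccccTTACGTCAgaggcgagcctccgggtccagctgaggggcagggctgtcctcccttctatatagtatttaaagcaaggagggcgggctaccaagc
The element lies 93 to 86 bases before the start, and 0.447% of the 32851 promoters hold these letters on either strand.

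Genes of the opposite zone were higher in collagen-rich spots. Of 14 tested pericentral genes 13 were above 0 and 6 rose, among them Glul, Cyp2a5, Gulo and Cyp2e1. Glul, the glutamine synthetase of the cells next to the central vein, at chr1:153899929-153909723, had 136 and 92.9 CPM against 56.3 and 50.5 CPM (log2 fold change 0.96 ± 0.15, edgeR adjusted p = 8.1e-08). Cyp2e1 had 1645 and 1224 CPM against 1102 and 887 CPM (0.41 ± 0.13, edgeR adjusted p = 0.027). Both sections were higher for these genes. In DEN30w the share of spots with a Cyp2e1 UMI was the same, 87.7% in both classes, and the share with a Glul UMI was 34.6% against 27.1%. The calls were fewer elsewhere: 1 pericentral gene passed in a joint fit of all 4 sections, and 0 passed without DEN22w or without DEN30w. The 15 general hepatocyte genes, which mark the cell type throughout the lobule, summed to 119078 and 111222 CPM against 122412 and 111976 CPM, and 1 fell (Serpina1c). Their median of -0.24 became -0.11 when libraries were scaled to hepatocyte genes, which moves the median of all genes to 0.14. The same scaling left 11 periportal genes lower and 7 pericentral genes higher.

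**Figure D3:**
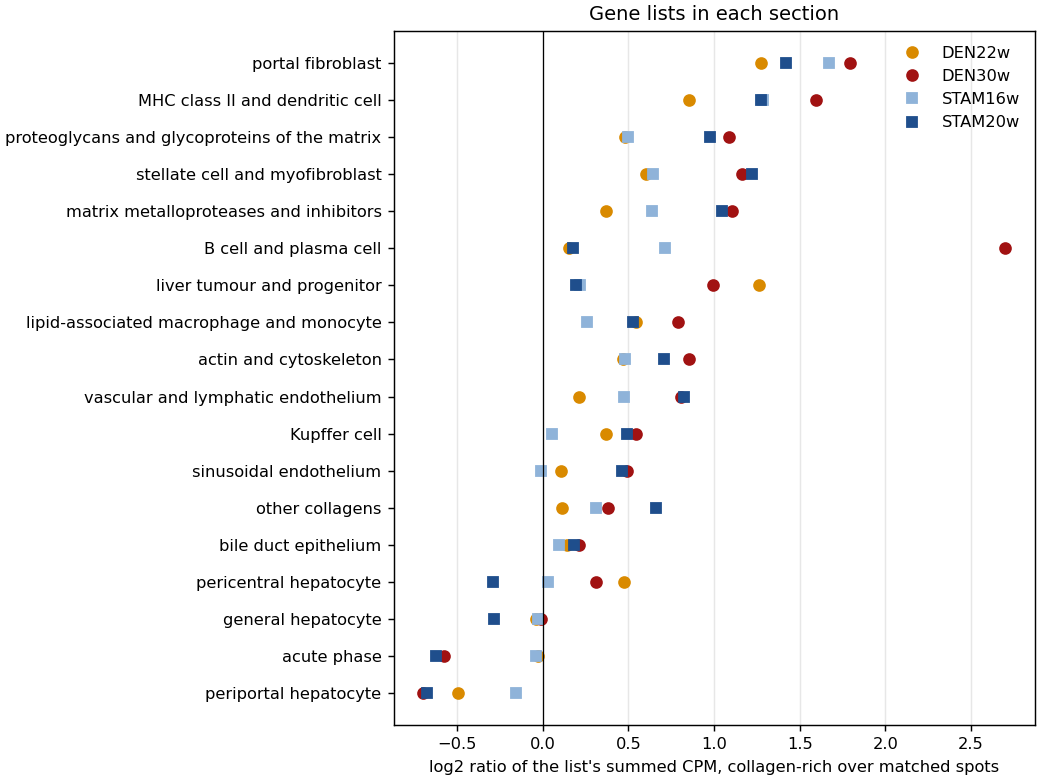
Log2 ratio of the summed CPM of each gene list, collagen-rich over matched spots, in DEN22w and DEN30w (circles) and in STAM16w and STAM20w (squares). Periportal genes lie below 0 in all 4 sections, pericentral genes lie above 0.3 in both DEN+CCl4 sections, and the B cell and plasma cell list reaches 2.70 in DEN30w only.

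Acute phase genes, which the liver secretes in inflammation, were at other levels in the 2 sections. Saa1 fell, with 57.8 CPM in collagen-rich and 73.3 CPM in matched spots of DEN22w, and 3599 and 8641 CPM in DEN30w. The gap lay within counting error in DEN22w. Saa2 had 21 against 9 UMIs in DEN22w and 5030 against 11240 in DEN30w, opposite directions beyond counting error. Of 14 acute phase genes 7 fell, and 1 did so without DEN22w. Mt1 and Mt2, the metallothioneins, fell overall but were at 275 and 45.2 CPM against 243 and 35.6 CPM in DEN22w. None of 14 complement genes and 11 interferon response genes passed by edgeR, and none of 11 proliferation genes, of which 10 were above 0. Over all genes, 269 of 9836 tested genes differed between the sections beyond counting error, 12 of them in opposite directions.

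Along the score the levels moved in steps within each section. Spots were divided into those with no scoring UMI, 3 equal parts of the remaining spots by score (low, middle and high) and the collagen-rich spots. Pck1 was at 1932, 2112, 1806, 1387 and 954 CPM in this order in DEN22w, and at 2403, 2553, 2137, 1562 and 1135 CPM in DEN30w. Glul was at 51.6, 44.5, 57.8, 62.8 and 136 CPM in DEN22w and at 54.8, 41.3, 50.5, 66.4 and 89.4 CPM in DEN30w. Mmp2 was at 15.3, 10.8, 18.3, 23.2 and 54.1 CPM in DEN22w and at 14.7, 10.6, 13.5, 20.7 and 73.8 CPM in DEN30w. In both sections the low part stood at or beyond the spots with no scoring UMI, and the change lay in the upper steps. The low part was also the deepest class, with medians of 11618 and 16152 UMIs, since a single collagen UMI gives a low score in a deep spot.

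**Figure D4:**
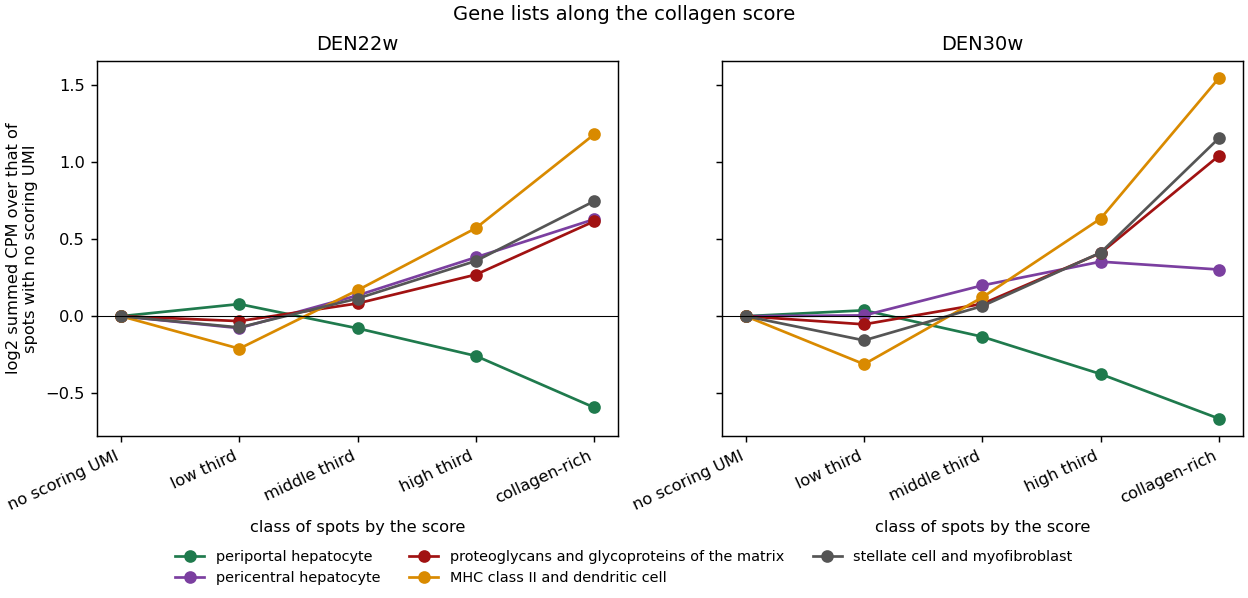
Log2 of the summed CPM of 5 gene lists over that of spots with no scoring UMI, for the classes of spots from no scoring UMI to collagen-rich, in DEN22w (left) and DEN30w (right). The periportal list falls below 0 and the other lists stand above 0 in the last classes, and the pericentral list levels off in DEN30w.

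Distance from the collagen-rich spots gave the same order. Pck1 was at 954, 1439, 1944 and 2097 CPM in DEN22w in collagen-rich spots and at 1, 2 and 3 or more steps, and at 1135, 1701, 2297 and 2311 CPM in DEN30w. Meg3 was at 110, 66.8, 40.4 and 29.98 CPM and at 153, 114, 77.1 and 51.7 CPM. These classes were not matched on UMI totals, and the mean UMIs per spot rose at each step outward in both sections. Distance and depth are therefore not separated in these values. Spots near a collagen-rich spot have collagen UMIs of their own, so spots with 0 scoring UMIs that touched a collagen-rich spot were set against spots with 0 scoring UMIs at 3 or more steps, in 218 pairs in DEN22w and 135 in DEN30w. Medians of UMIs per spot were 5799 against 7144.5 in DEN22w and 1940 against 2325 in DEN30w. Of 7917 genes 1 was higher and 7 were lower in touching spots, 0.0126% and 0.0884% of the genes and 0.101% in either direction (edgeR's quasi-likelihood test). Pck1 fell, with 1624 and 2060 CPM in touching and 2002 and 2519 CPM in distant spots, a log2 fold change of -0.34 ± 0.05 (edgeR adjusted p = 0.00067). Sds fell by 0.37 and Saa1 by 0.39, and the others were Saa2, Mup3, Serpina1c and Serpina1d. Gstm1, a glutathione transferase, was higher by 0.23. No gene of the stellate, portal fibroblast, matrix, collagen or pericentral lists passed, and all 16 periportal genes were below 0, with 2 called. None of the 8 genes passed under DESeq2, without a section block or without either section. With the top 20% of spots as collagen-rich, 4 other genes were higher and 0 lower.

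**Figure D5:**
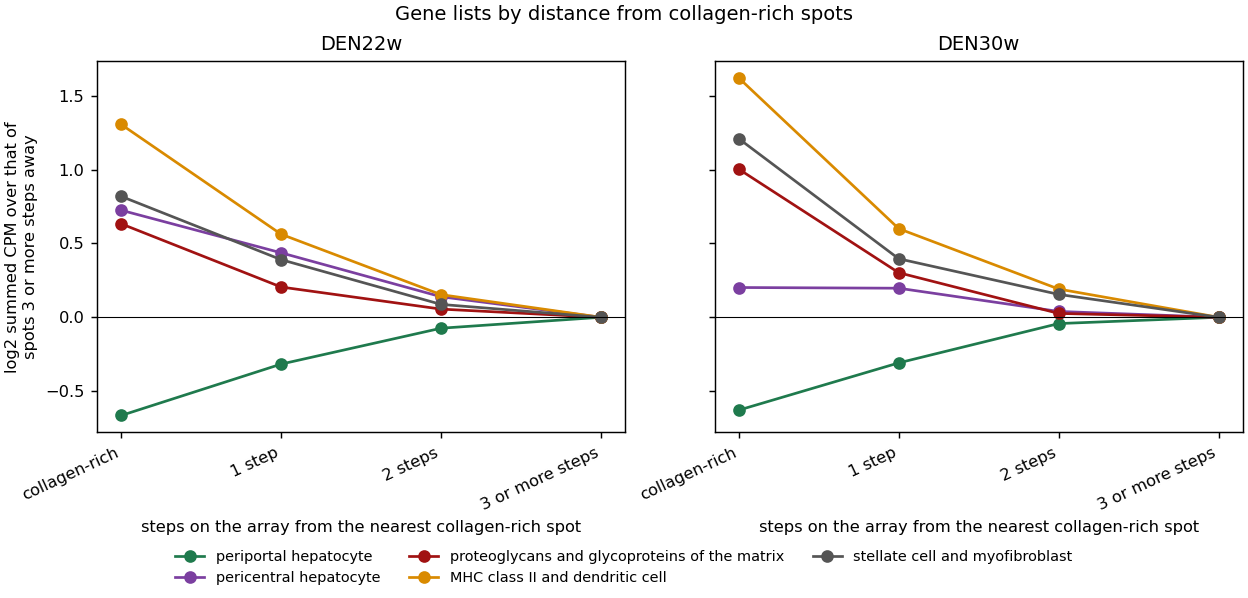
Log2 of the summed CPM of 5 gene lists over that of spots 3 or more steps away, from collagen-rich spots outward, in DEN22w (left) and DEN30w (right). The lists approach the distant level within 2 steps in both sections, the periportal list from below. The classes are not matched on UMI totals, and the mean UMIs per spot rise outward.

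Among the collagen-rich spots themselves, values differed with position. In DEN22w, spots at the edge had 88.6 CPM of Mmp2 and 269 CPM of Bgn, and those inside had 44.5 and 164 CPM. In DEN30w, spots at the edge had 117 and 475 CPM, and those inside 43.6 and 290 CPM. Pck1 varied less, at 1049 CPM at the edge and 1195 CPM inside in DEN30w, and 831 and 988 CPM in DEN22w, all below the matched spots. Spots with 3 or more scoring UMIs and those with 1 or 2 had 943 and 1009 CPM of Pck1 in DEN22w and 1126 and 1347 CPM in DEN30w. These are sums over 64 to 226 spots of a section and carry no test.

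The same rule applied in the STAM sections gave 208 and 283 collagen-rich spots and asked whether the contrast differed between models. The models share no labelled time, so model and time cannot be told apart. The lowest score inside the class was 2.96 in STAM16w and 3.91 in STAM20w, against 4.91 in DEN22w and 7.93 in DEN30w. Of 9747 genes, 1 passed the test of the difference (0.0103%, edgeR's interaction term on 8 sums), and 465 had an unadjusted p under 0.05. It was Meg3, an imprinted long noncoding RNA at chr12:109540996-109571729. Meg3 had 110 and 162 CPM in collagen-rich and 51.1 and 61.6 CPM in matched spots of DEN22w and DEN30w, and 35.7 and 21.9 CPM against 39.9 and 33.7 CPM in STAM16w and STAM20w. Meg3 was higher in collagen-rich spots of both DEN+CCl4 sections. It was lower in those of STAM20w, while the small gap in STAM16w lay within counting error. The difference of the log2 ratios was 1.67 ± 0.24 (edgeR adjusted p = 0.0082). The call was lost under DESeq2, without DEN30w, without STAM20w, without edge spots and with the top 5% of spots, where the difference lay between 1.31 and 1.83. Within DEN+CCl4 it was 1 of 5 genes of the 8 tested in the liver tumour and progenitor list that rose, with Ly6d, Cpe, H19 and Rian. Rian, which lies near Meg3, had 26 against 4 UMIs in DEN22w and 25 against 14 in DEN30w. Glul had 639 and 364 CPM in collagen-rich and 513 and 376 CPM in matched STAM spots, and its difference between models was 0.93 ± 0.23 with an adjusted p of 0.39 (edgeR), and it passed only without STAM16w (1.16 ± 0.22, edgeR adjusted p = 0.0077). Pck1 was at 1534 and 1211 CPM against 1831 and 1963 CPM in STAM, Sds at 378 and 164 CPM against 414 and 339 CPM, and Mmp2 at 13.9 and 13.3 CPM against 1.81 and 3.92 CPM. Their differences between models did not pass, which does not show that the models are alike.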

How the data were processed

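The deposited values are UMI counts per gene and spot, made with Space Ranger 1.3.1 and STAR on mm10, per the submitters' processing notes. Raw counts of kept spots were summed per section and class. Matched spots were chosen without replacement within 0.1 log10 UMI. The sums were tested with edgeR 4.0.16 (R 4.3.3, TMM factors, filterByExpr, section as a block, Benjamini-Hochberg), with DESeq2 1.42.0 as an alternative. The edgeR test was also run on simulated counts with a common spread for all genes and the same change in both DEN+CCl4 sections. Such a run cannot check how the test handles genes in which the sections disagree. Intervals of ratios within a section are exact binomial at 95%, those of CPM exact Poisson, and both cover counting error only. Genes were kept apart by Ensembl ID, and 26335 of 32285 symbols matched RefSeq. Members of near-identical families (Mup, Saa, immunoglobulin and Cyp2a genes) are uncertain as single genes.

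The spots, the scoring genes and the gene lists were chosen with earlier results of these data known. Named genes were the 12 largest rises and 10 largest falls among called genes of one direction in both sections with at least 50 CPM in the higher class, up to 3 members of each list by smallest p, and up to 10 called genes for the difference between models. Further list members in the text, such as Acta2, Cygb, Tagln, Thbs2, Trem2 and the Kupffer cell genes, were named after their values were seen. Alternatives changed the tool, the filter, the block, the sections fitted, the scaling, the matching, the score limit and the spots left out. The alternative with at least 3 scoring UMIs was chosen after seeing the data. Barcodes shared by the 2 DEN+CCl4 sections (1925) are positions of the slide design.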

Additional observations from a re-analysis of the deposited data

Results flagged for a closer look

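Meg3 differed between the models by the test of the difference itself. Its contrast between collagen-rich and matched spots was 1.67 ± 0.24 higher on the log2 scale in DEN+CCl4 than in STAM (edgeR adjusted p = 0.0082). The UMIs were 149 against 69 in DEN22w and 333 against 122 in DEN30w, and 59 against 66 in STAM16w and 56 against 86 in STAM20w. The models share no labelled time, so model and time cannot be told apart. The Meg3 call was lost under several alternatives named above.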

How the results depend on the processing

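Against 738 genes called between collagen-rich and matched spots, DESeq2 called 76 of the 874 genes to which it gave an adjusted p (10 higher, 66 lower), a joint fit of all 4 sections 380, and a fit with no section block 0 (612 at an unadjusted p under 0.05). Leaving out 1 section gave 0 to 263, where the remaining section's spread was taken to be like that of the STAM sections. The other alternatives stayed within 1.5 times in total. Hepatocyte scaling gave 446 higher and 82 lower and shifts the median of all genes by 0.14. Of 1356 values of named genes under alternatives in this comparison, 1038 kept direction and side, 299 lost the call, 5 gained it and 14 turned direction. Cd5l, not called, was at -0.0173 with no filter on low counts, -0.0305 with stricter matching, -0.163 with the top 5%, -0.0179 with the top 20%, -0.0261 with controls from the lower part of the score and -0.0051 with at least 3 scoring UMIs, and lay at -0.12 without DEN22w and 0.128 without DEN30w. Clec4f was at 0.0182 without edge spots and Hba-a1 at -0.148 with controls from the lower part of the score. With 1 section left out, Clec4f lay at -0.431 to 0.0873, Adgre1 at -0.0084 to 0.967, Mt1 at -0.932 to 0.0818, Mt2 at -0.77 to 0.249 and Saa2 at -1.39 to 1.12, where the opposite direction came without DEN30w. Against 8 genes called between touching and distant spots, 0 passed under DESeq2, with no section block and in the joint fit (21 at an unadjusted p under 0.05 by DESeq2), 0 without either section, 22 with no filter, 5 with hepatocyte scaling (2 higher, 3 lower) and 4 with the top 20% (4 higher, 0 lower), which shared 0 of the 8 genes and had Mup3 at 0.0811. Against 1 gene for the difference between models, DESeq2 and the top 5% gave 0, no filter 11, stricter matching 5, the top 20% 10, no duct marker spots 7, at least 3 scoring UMIs 2, and leaving out 1 section 0 to 26. The difference of Mmp2 between models, 0.03 and not called, was -0.116 by DESeq2, -0.0958 with the top 20%, -0.557 without edge spots, -0.336 without DEN30w and -0.801 to 0.445 without a STAM section, and that of Sds was -0.867 to 0.149 without a STAM section. The cause of these changes was not tested. No paired analysis was possible because the labels give the sections no replicate numbers that pair them across models; the section itself is the replicate block of the fit. Depth limits genes with few UMIs, such as Krt19, and the class is defined by a median of 3 to 6 molecules.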

Other observations

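Collagen-rich spots that touched another collagen-rich spot and those that touched none also differed in level. Pck1 was at 835 CPM in the 160 spots of DEN22w that touched another and 1099 CPM in the 115 that touched none, and at 1082 and 1275 CPM in the 218 and 79 spots of DEN30w. The B cell and plasma cell list summed to 4043 and 2462 CPM in these spots of DEN30w, and to 179 and 200 CPM in DEN22w. These values carry no test.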
